A study of Homo sapiens with 11 samples.

Results

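The genes described here are 10 transcripts that serve as a readout of signalling through the kinase ERK. They are the ETS transcription factors ETV1, ETV4 and ETV5, the MAP kinase phosphatases DUSP4, DUSP5 and DUSP6, the Sprouty proteins SPRY2 and SPRY4, and the Spred proteins SPRED1 and SPRED2. They were selected on their symbols, with the results of ODC against CTRL known, from the 26485 gene symbols in each of the 2 count tables. All 10 were present in both tables, and all 10 passed the filter on low counts at both time points. Because the genes were chosen by a reading of these contrasts, their differences between ODC and CTRL are given as a description, without a test.

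RNA was sequenced from Caki-1-SR cells, a sunitinib-resistant line derived from Caki-1, which came from a skin metastasis of a human clear cell renal cell carcinoma. The cells of all 4 groups carried that resistance, and the growth medium of the line holds 1 µM sunitinib, an inhibitor of receptor tyrosine kinases. The ODC groups received a mix of 4 drugs for 24 h in 3 libraries and for 2 h in 3 libraries. The mix held the ruthenium drug Rapta-C at 2 µM, erlotinib, which blocks the kinase of EGFR, at 1 µM, metformin, used against diabetes, at 1 µM, and the plant-derived parthenolide, known to reduce inflammation, at 5 µM. The labels name the controls only as CTRL, with 3 libraries at 24 h and 2 libraries at 2 h, which makes 11 libraries in all. The study describes its 24 h controls as sham-treated in a figure legend and as untreated in its text. The 4 drugs were given together, so a part of any single drug cannot be told apart from the others, and the study names clone 1 of the resistant line for its 24 h treatment. The titles of the samples carry a different month for each time point, so that time and that month coincide. Nothing in the labels says that the libraries of a group came from separate cultures, and p-values then measure only the spread between these libraries, which may be technical.

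The epidermal growth factor receptor and other receptor kinases pass their signal through RAS, RAF and MEK to ERK, which enters the nucleus and changes the transcription of a small set of target genes. ETV1, ETV4 and ETV5 form the PEA3 group of ETS factors and are among these targets; in resting cells they are held down by the repressor CIC, which ERK signalling removes. DUSP4, DUSP5 and DUSP6 take phosphate off ERK and related kinases, Sprouty proteins dampen the signal between the receptor and RAF, and Spred proteins bring the RAS inactivator neurofibromin to the membrane, so that each of them closes a negative feedback loop.

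Library totals were 17785229 to 20882856 counts at 24 h and 25782895 to 31118349 counts at 2 h. Levels are given as CPM, counts scaled to library size by the TMM method over the 11 libraries. Of 12 markers of a renal epithelial tumour line, PAX8, a kidney lineage factor, lay between 444 and 887 CPM, while PAX2, CA9, CA12 and LRP2 stayed under 1 CPM in every library. The keratins KRT8 (849, 734 and 535 CPM in CTRL against 395, 457 and 507 CPM in ODC) and KRT18 (682, 520 and 497 CPM against 308, 316 and 405 CPM) were lower in every ODC library at 24 h. At 24 h PAX8 went the other way (444, 664 and 505 CPM in CTRL, 567, 887 and 554 CPM in ODC), with an overlap. The 12 markers summed to 5118 to 5988 CPM in CTRL and 4095 to 5031 CPM in ODC at 24 h, without an overlap. VIM held the largest part of that sum (3396, 3593 and 3186 CPM in CTRL, 2451, 2938 and 2975 CPM in ODC). The part of these marker levels in the differences described below was not tested. CA9 is a gene that clear cell carcinomas without VHL usually express, and its highest count was 1. Among markers of other cell types, 5 of 7 for leukocytes and 4 of 5 for endothelium were under 1 CPM in every library.

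Several libraries stood apart from the others of their group. In CTRL replicate 1 at 2 h, 5 of the 6 fibroblast markers had their highest value of all libraries. The collagen gene COL3A1 was at 41.1 CPM there and at no more than 0.193 CPM in any of the other 10 libraries, with DCN at 2.77, LUM at 2.47 and THY1 at 1.06 CPM against at most 0.108, 0.129 and 0.0530 CPM elsewhere. The summed level of the 6 markers was 284 CPM in that library and 67.7 to 168 CPM in the others, where COL1A1 and PDGFRB made up nearly all of it. The same library was also the highest of the 11 for EPCAM, at 3.80 against at most 0.869 CPM, for KRT19, at 1.82 against at most 0.0965 CPM, and for 4 of the 5 endothelial markers, each under 1 CPM, so these transcripts were not limited to fibroblast genes. Their part in the differences at 2 h was not tested. At 24 h, ODC replicate 3 was the highest of the 3 ODC libraries in all 10 genes, against 39.3% of all genes tested. At 2 h, CTRL replicate 1 was the higher of the 2 CTRL libraries in all 10 genes, against 50.5% of all genes tested. In bulk RNA, fewer cells that express a gene and less RNA per cell cannot be told apart.

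Promoter sequences were available here for 6 of the 10 genes, in 14 windows of 250 bases upstream of RefSeq transcript starts (build GRCh38.p14). ETV4, ETV5, DUSP4 and DUSP5 had no window, so their promoters were not searched. ETV1 had more windows than any other gene. Both strands were searched for TGAATGAA and TGAATGGA, which are octamers bound by CIC, for the ETS core CCGGAAG, for the AP-1 site TGANTCA, for the cAMP response element TGACGTCA and for the CArG box of serum response factor. Only TGAATGGA was found, in 1 of the 14 windows. That window belongs to ETV1 and lies at chr7:13991426-13991675 on the minus strand. Whether the other PEA3 genes, ETV4 and ETV5, hold the octamer is not known from this search. The window of DUSP6, at chr12:89352502-89352751 on the minus strand, is shown beside it because DUSP6 differed most between replicates at 2 h and holds none of these motifs. Capitals mark the octamer, 125 to 118 bases before the start.
ETV1: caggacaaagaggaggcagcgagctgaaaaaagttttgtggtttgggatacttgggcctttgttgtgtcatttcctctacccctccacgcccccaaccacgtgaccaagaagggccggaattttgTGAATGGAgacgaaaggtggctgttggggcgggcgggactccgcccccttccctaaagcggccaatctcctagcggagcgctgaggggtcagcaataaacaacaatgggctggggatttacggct
DUSP6: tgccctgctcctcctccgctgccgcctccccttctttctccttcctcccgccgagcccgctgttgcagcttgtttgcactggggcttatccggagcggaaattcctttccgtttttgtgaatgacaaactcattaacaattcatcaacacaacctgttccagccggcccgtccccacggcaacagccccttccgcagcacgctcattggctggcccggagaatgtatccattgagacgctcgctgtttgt
Of 35116 promoter windows of the same length, 0.832% held TGAATGGA and 1.4% held TGAATGAA. The other searched motifs were found in 8.52% (CCGGAAG), 6.57% (TGANTCA), 1.65% (TGACGTCA) and 1.16% (CArG box) of windows. A match describes the letters of a window and is not evidence of binding.

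**Figure D1:**
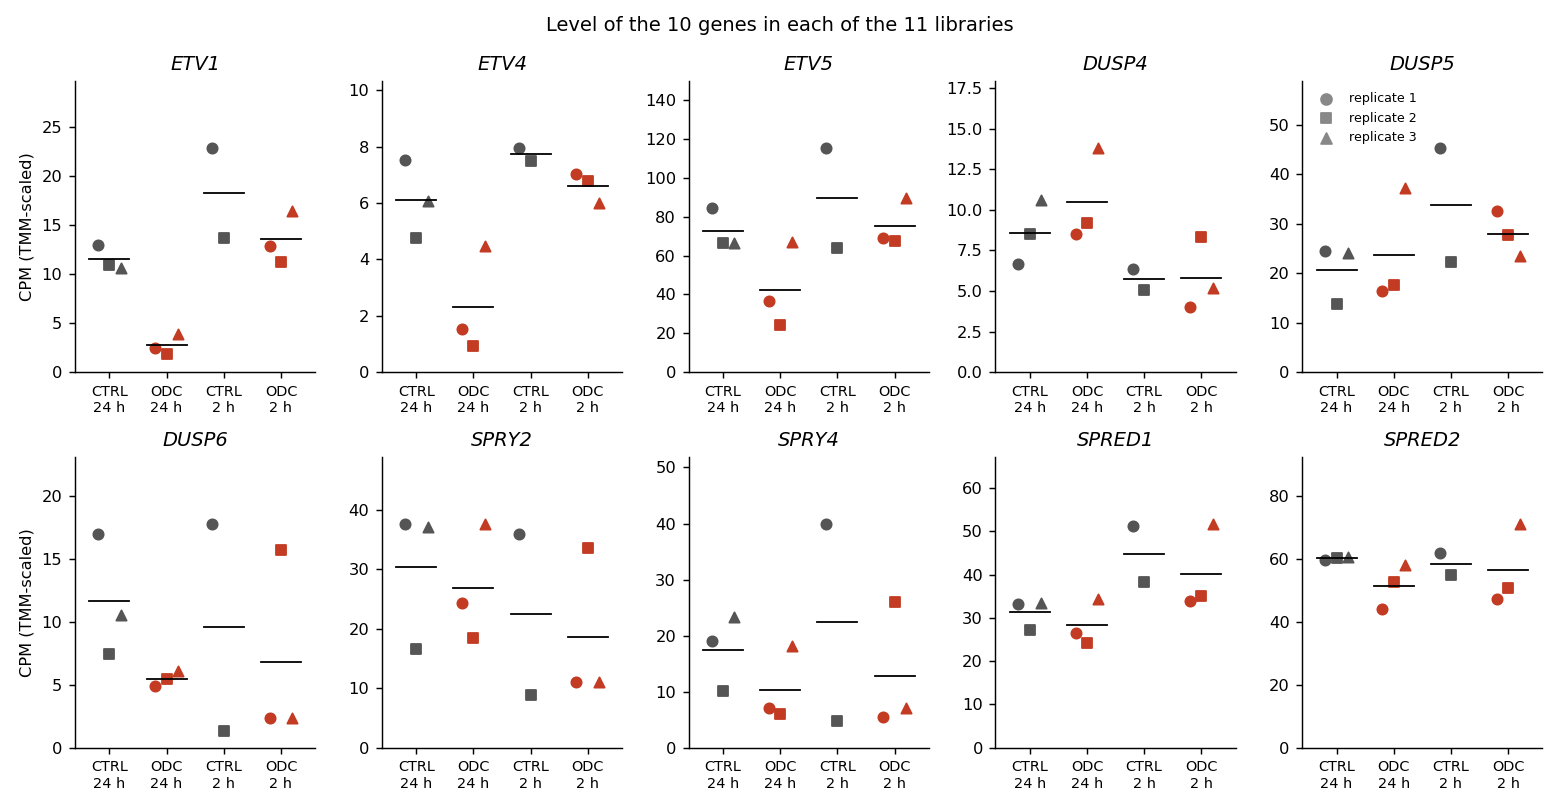
Level of each of the 10 genes in CPM, on a linear axis from 0, in the 11 libraries. Points are libraries (shape: replicate number), grey for CTRL and red for ODC, and the line is the mean of the group. ETV1 in the ODC libraries at 24 h lies between 1.88 and 3.90 CPM, below all other libraries, while DUSP6, SPRY2 and SPRY4 at 2 h are high in 1 CTRL and 1 ODC library.

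ETV1 (chr7:13891229-13991425, minus strand, GENCODE 44 on hg38) had the largest fold change of the 10 genes. At 24 h it was at 12.9, 10.96 and 10.6 CPM in the CTRL libraries and at 2.46, 1.88 and 3.90 CPM in the ODC libraries. The groups did not overlap, and the highest ODC library lay well below the lowest CTRL library. The CTRL mean was 11.5 CPM ± 1.26 (SD, n = 3) and the ODC mean 2.75 CPM ± 1.04 (SD, n = 3), which is 4.13-fold lower, or -2.05 on the log2 scale (SE 0.26). At 2 h it was at 22.9 and 13.7 CPM in CTRL and at 12.9, 11.3 and 16.5 CPM in ODC. These groups overlapped, since ODC replicate 3 lay above CTRL replicate 2, and the log2 fold change was -0.44 (SE 0.24). With CTRL replicate 1 left out, the log2 value at 2 h was -0.01, so the difference at 2 h rested on that library. It is also the library with the high COL3A1, EPCAM and KRT19 given above, whose part in this difference was not tested.

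ETV4 (chr17:43527844-43579620, minus strand), a second PEA3 factor, was the next lowest relative to CTRL at 24 h. Its levels were 7.52, 4.77 and 6.06 CPM in CTRL and 1.52, 0.915 and 4.49 CPM in ODC. The groups did not overlap, but ODC replicate 3 was close to CTRL replicate 2. The log2 fold change was -1.38 (SE 0.50), and it was -2.29 without ODC replicate 3. At 2 h the 5 libraries were close together, with 7.94 and 7.50 CPM in CTRL and 7.04, 6.79 and 6.01 CPM in ODC. Every ODC library lay below both CTRL libraries, by a log2 fold change of -0.22 (SE 0.16).

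ETV5 (chr3:186046314-186110318, minus strand), the last of the PEA3 factors, differed less between the groups. At 24 h it was at 84.5, 66.4 and 66.5 CPM in CTRL and at 36.4, 24.1 and 66.9 CPM in ODC. ODC replicates 1 and 2 were below every CTRL library, while ODC replicate 3 lay within the CTRL range. The log2 fold change was -0.76 (SE 0.32), and it was -1.24 without ODC replicate 3. At 2 h the levels were 115 and 64.0 CPM in CTRL and 68.8, 67.4 and 89.7 CPM in ODC, so that all ODC libraries lay between the CTRL libraries. The log2 fold change was -0.25 (SE 0.24), and it was 0.24 without CTRL replicate 1.

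The 3 MAP kinase phosphatases did not share a direction at 24 h. DUSP6 (chr12:89347235-89352501, minus strand), the cytoplasmic phosphatase with a preference for ERK, was at 17.0, 7.47 and 10.5 CPM in CTRL and at 4.92, 5.44 and 6.10 CPM in ODC at 24 h. The groups did not overlap, and the ODC libraries were much closer to each other than the CTRL libraries were, with a highest-to-lowest ratio of 1.24 against 2.28. The log2 fold change was -1.07 (SE 0.29), or 2.11-fold lower. At 2 h DUSP6 was at 17.8 and 1.37 CPM in CTRL and at 2.36, 15.7 and 2.38 CPM in ODC. In each group 1 library was high and the rest were low, and the CTRL libraries differed 13.0-fold. The log2 fold change of -0.50 had an SE of 1.03, and it was 2.32 without CTRL replicate 1 and -2.01 without ODC replicate 2.

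DUSP4 (chr8:29333064-29350684, minus strand), a nuclear phosphatase, was at 6.69, 8.53 and 10.6 CPM in CTRL and at 8.50, 9.20 and 13.8 CPM in ODC at 24 h. The groups overlapped, with a log2 fold change of 0.30 (SE 0.24). At 2 h it was at 6.38 and 5.08 CPM in CTRL and at 3.99, 8.33 and 5.16 CPM in ODC. The means were nearly equal, with a log2 fold change of 0.02 (SE 0.31). DUSP5 (chr10:110497907-110511533, plus strand), a nuclear phosphatase specific for ERK, was at 24.4, 13.8 and 23.9 CPM in CTRL and at 16.3, 17.7 and 37.1 CPM in ODC at 24 h. The groups overlapped, and the log2 fold change of 0.21 (SE 0.34) became -0.26 without ODC replicate 3. At 2 h DUSP5 was at 45.2 and 22.2 CPM in CTRL and at 32.6, 27.6 and 23.4 CPM in ODC. All ODC libraries lay between the CTRL libraries, with a log2 fold change of -0.28 (SE 0.27) that was 0.33 without CTRL replicate 1.

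The Sprouty genes overlapped between the groups at both times. SPRY2 (chr13:80335976-80341126, minus strand) was at 37.6, 16.6 and 37.1 CPM in CTRL and at 24.3, 18.5 and 37.7 CPM in ODC at 24 h. Both groups spanned nearly the same range, and the log2 fold change was -0.17 (SE 0.35). At 2 h it was at 35.9 and 8.91 CPM in CTRL and at 11.1, 33.6 and 11.1 CPM in ODC. As for DUSP6, CTRL replicate 1 and ODC replicate 2 were the high libraries, and the log2 fold change of -0.28 (SE 0.63) moved to 1.06 without the first and to -1.02 without the second.

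SPRY4 (chr5:142310427-142326455, minus strand) was at 19.1, 10.2 and 23.3 CPM in CTRL and at 7.03, 6.03 and 18.1 CPM in ODC at 24 h. ODC replicates 1 and 2 were below every CTRL library, and ODC replicate 3 was within the CTRL range. The log2 fold change was -0.74 (SE 0.45), and it was -1.40 without ODC replicate 3. At 2 h SPRY4 was at 39.9 and 4.77 CPM in CTRL and at 5.40, 26.03 and 7.06 CPM in ODC. The same 2 libraries were high, and the log2 fold change of -0.81 (SE 0.85) moved to 1.43 without CTRL replicate 1 and to -1.84 without ODC replicate 2.

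The Spred genes differed little between the groups. SPRED1 (chr15:38252836-38357249, plus strand) was at 33.3, 27.1 and 33.5 CPM in CTRL and at 26.4, 24.1 and 34.4 CPM in ODC at 24 h. The groups overlapped, with a log2 fold change of -0.13 (SE 0.16). At 2 h it was at 51.3 and 38.3 CPM in CTRL and at 33.8, 35.0 and 51.8 CPM in ODC, again with an overlap, and the log2 fold change was -0.16 (SE 0.21). SPRED2 (chr2:65310851-65432637, minus strand) was at 59.7, 60.4 and 60.5 CPM in CTRL and at 43.99, 52.6 and 58.0 CPM in ODC at 24 h. Its CTRL libraries were almost equal and the ODC libraries all lay below them, but the log2 fold change was small, at -0.21 (SE 0.11). At 2 h SPRED2 was at 61.9 and 54.9 CPM in CTRL and at 47.3, 50.7 and 71.1 CPM in ODC, with an overlap and a log2 fold change of -0.05 (SE 0.18).

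**Figure D2:**
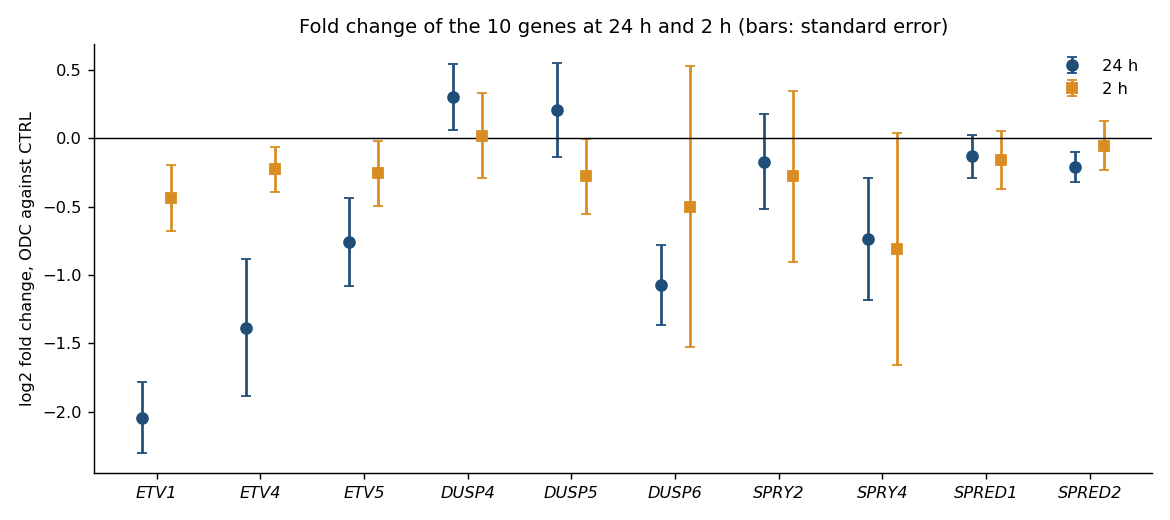
log2 fold change of ODC against CTRL (vertical axis) of the 10 genes at 24 h (circles) and at 2 h (squares), with bars of 1 standard error from edgeR's quasi-likelihood fits. ETV1 at -2.05, ETV4 at -1.38 and DUSP6 at -1.07 are the lowest at 24 h, and the bar of DUSP6 at 2 h spans an SE of 1.03.

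Over the 10 genes, the median log2 fold change at 24 h was -0.47, with 8 lower and 2 higher, and the median over the 12689 genes tested was 0.00. At 2 h the median was -0.27, with 9 lower and 1 higher, against -0.01 over the 13332 genes tested. The call rule of the study, an adjusted p under 0.05 with a fold change of at least 2, was met by ETV1 alone at 24 h, where it was met by 21 genes in all (0.165%), and 24 genes (0.189%) had an adjusted p under 0.05 at any fold change. By DESeq2, ETV1 and DUSP6 met it, among 146 genes. At 2 h no gene met the rule in edgeR's quasi-likelihood test (0%), 1 gene did by DESeq2, and 312 genes (2.34%) had an unadjusted p under 0.05. Every ODC library lay below every CTRL library for 4 of the 10 genes at 24 h (ETV1, ETV4, DUSP6 and SPRED2; 9.36% of all genes tested) and for 1 at 2 h (ETV4; 7.24% of all genes tested). Since these contrasts were known when the genes were chosen, nothing is read from these counts.

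With each library left out in turn, the log2 fold change of ETV1 at 24 h lay between -2.38 and -1.85. Of these fits, only the one without ODC replicate 3 kept ETV1 past the call rule. Among the fits with 1 library left out, the one without ODC replicate 3 gave the lowest value of each of the 10 genes at 24 h except DUSP6, whose lowest value of -1.31 came without CTRL replicate 2. At 2 h, leaving out CTRL replicate 1 raised all of them. These shifts restate the levels, since ODC replicate 3 at 24 h and CTRL replicate 1 at 2 h were the highest of their groups in all 10 genes.

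**Figure D3:**
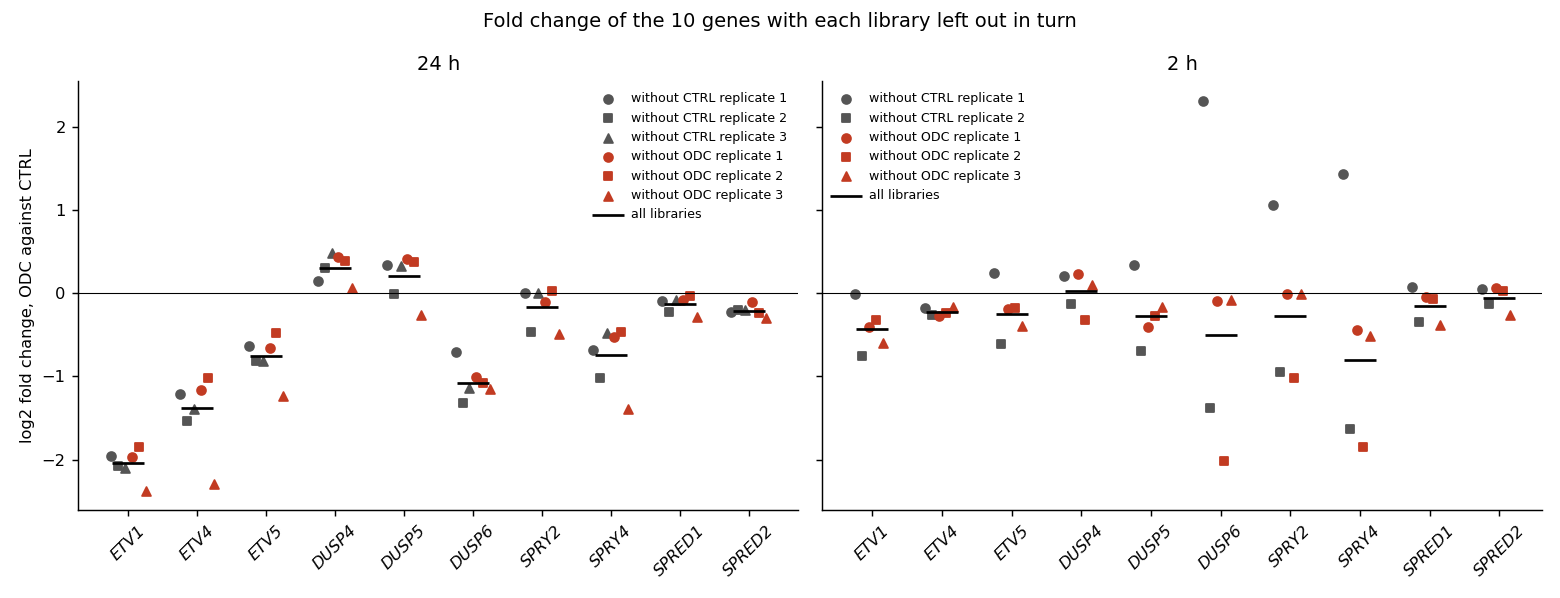
log2 fold change of ODC against CTRL (vertical axis) of the 10 genes with each library left out in turn, at 24 h (left) and 2 h (right). Colour and shape give the library left out (grey CTRL, red ODC), and the black line is the value with all libraries. At 2 h DUSP6 runs from -2.01 to 2.32 and SPRY4 from -1.84 to 1.43. ETV4 and ETV1 stay below 0 in both panels, though ETV1 reaches -0.01 at 2 h.

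The levels per exonic length (RPKM) allow the genes to be set beside each other. In CTRL at 24 h ETV5 had the highest mean, at 12.6 RPKM ± 1.80 (SD, n = 3), and did not overlap with SPRED2, the next, at 10.9 RPKM ± 0.0834. It did overlap with SPRY2, which reached 11.7 RPKM, above the lowest ETV5 value of 11.5 RPKM. SPRED2, SPRY2 (9.48 RPKM) and DUSP5 (8.17 RPKM) overlapped with their neighbours in this order, as did SPRED1 (4.04 RPKM), DUSP6 (3.02 RPKM), SPRY4 (2.67 RPKM) and ETV4 (1.74 RPKM), with gaps between DUSP5 and SPRED1 and between ETV4 and ETV1. ETV1, at 1.20 RPKM ± 0.131, and DUSP4, at 1.18 RPKM ± 0.269, overlapped with each other and had the lowest means. DUSP4 also overlapped with ETV4, since it reached 1.46 RPKM, above the lowest ETV4 value of 1.36 RPKM. In ODC at 24 h ETV1 was the lowest of the 10, at 0.287 RPKM ± 0.109 (SD, n = 3), overlapping with ETV4 at 0.657 RPKM ± 0.544. ETV5 stood at rank 4 there, at 7.36 RPKM ± 3.82, overlapping with its neighbours SPRY2 and SPRED1. At 2 h ETV5, DUSP5 and SPRED2 headed the order and DUSP4 closed it, in CTRL and in ODC alike, and ETV1 did not overlap with DUSP4 in either group.

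The spread at 2 h set DUSP6, SPRY4 and SPRY2 apart from the rest. In these 3 genes, both CTRL replicate 1 and ODC replicate 2 were at least 2-fold above each of the other 3 libraries, with a ratio of the lower of the 2 to the highest of the others of 6.60 for DUSP6, 3.69 for SPRY4 and 3.03 for SPRY2. Of the 13332 genes tested at 2 h, 30 (0.225%) had this pattern. These libraries were also the 2 highest of the 5 in 4 of the 10 genes, against 9.78% of all genes tested. The 2 libraries were picked for their DUSP6, SPRY2 and SPRY4 levels, so nothing about the 10 genes is read from these shares. Ranked by the SD of log2 CPM among the 13332 genes, DUSP6 was at place 7 within CTRL and at place 7 within ODC, SPRY4 at places 17 and 27, and SPRY2 at places 72 and 90. ETV4, in contrast, ranked at 10275 within CTRL and 7587 within ODC. Within CTRL at 24 h, DUSP6, SPRY4 and SPRY2 also differed more than 2-fold between libraries, by 2.28, 2.29 and 2.27, with CTRL replicate 2 the lowest in each.

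Of the other genes of the pathway that were listed, 4 of 87 tested showed the pattern of those 2 libraries. EGR1, an immediate early transcription factor, was at 40.1 and 2.00 CPM in CTRL and at 3.86, 158 and 6.52 CPM in ODC at 2 h. PHLDA1, an ERK output gene, was at 334 and 45.1 CPM in CTRL and at 57.1, 168 and 75.2 CPM in ODC. SPRY1, another Sprouty gene, was at 9.73 and 1.33 CPM in CTRL and at 1.10, 5.70 and 1.15 CPM in ODC. FOS, an AP-1 subunit named here after its values were seen, was at 5.28 and 0.316 CPM in CTRL and at 1.07, 3.64 and 1.12 CPM in ODC. The high libraries were thus CTRL replicate 1 and ODC replicate 2 in each of them, although EGR1 was highest in the ODC library and the other 3 in the CTRL library. Genes outside the lists with the pattern, also named after their values were seen, included the cytokines CSF2 and IL6 and the feedback gene SOCS3, with ratios of 9.92, 2.72 and 3.30. Of the transcripts that set CTRL replicate 1 apart, COL3A1 was at 0.193 CPM in ODC replicate 2 at 2 h, against 41.1 CPM in CTRL replicate 1. ODC replicate 2 was nevertheless the second highest of all libraries for COL3A1, LUM (0.129 CPM), KRT19 (0.0965 CPM) and EPCAM (0.869 CPM). DCN and THY1 had no count there. What the 2 libraries have in common was not tested.

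**Figure D4:**
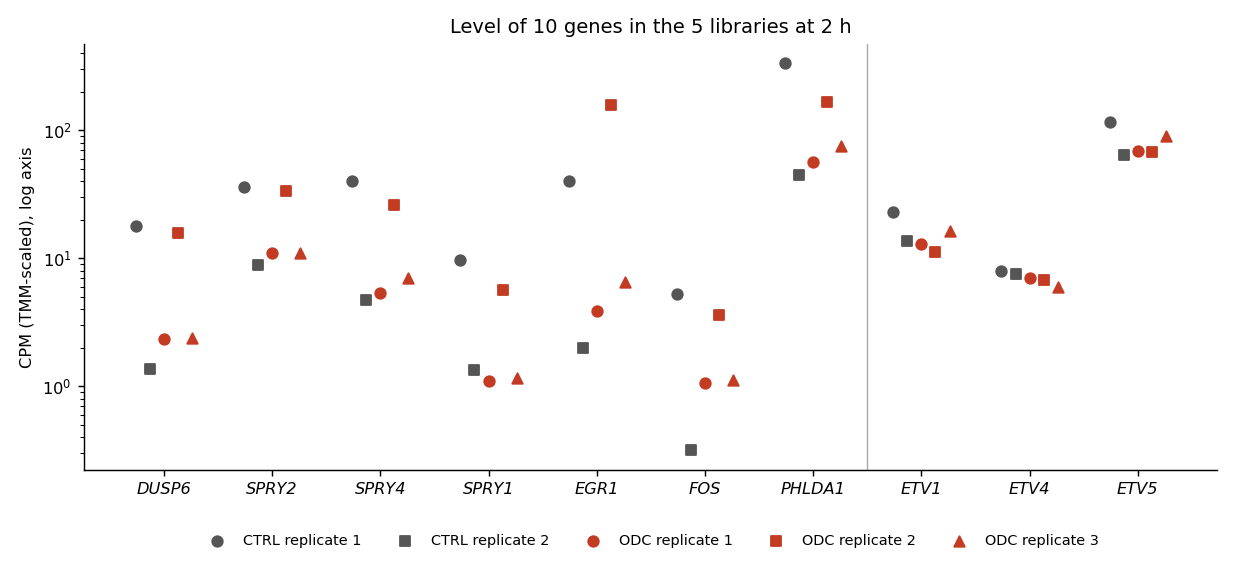
Level in CPM, on a log axis, in the 5 libraries at 2 h, of 7 genes that are high in CTRL replicate 1 and ODC replicate 2 (left of the line) and of the 3 ETV genes (right). Points are libraries, grey for CTRL and red for ODC. DUSP6 is at 17.8 and 15.7 CPM in those libraries and at no more than 2.38 CPM in the others, while ETV4 lies between 6.01 and 7.94 CPM in all 5.

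Over the 6 libraries at 24 h, the Pearson correlation of log2 CPM was 0.92 between ETV1 and ETV4, 0.88 between ETV1 and ETV5 and 0.99 between ETV4 and ETV5, and ETV1 with DUSP6 gave 0.85. DUSP6 gave 0.54 with SPRY2 and 0.72 with SPRY4, and SPRY2 gave 0.84 with SPRY4. Over the 5 libraries at 2 h, ETV1 gave 0.94 with ETV5, 0.35 with ETV4 and 0.28 with DUSP6. DUSP6 gave 0.999 with SPRY2 and 0.986 with SPRY4, and SPRY2 gave 0.988 with SPRY4. The difference of these values between the times was not tested. Over all 11 libraries with each time centred on its mean, DUSP6 gave 0.89 with SPRY2 and 0.92 with SPRY4, and ETV1 gave 0.89 with ETV4, 0.88 with ETV5 and 0.40 with DUSP6. These values describe libraries that share the difference between CTRL and ODC, and at 2 h the values of DUSP6, SPRY2 and SPRY4 rest on the same 2 libraries. By this last measure, the 5 genes most like ETV1 among 12603 were PLCH1 (0.98), MRE11A (0.97), UACA (0.96), CCDC109B (0.95) and KIF2A (0.95), and ETV4 and ETV5 ranked at 79 and 103. PLCH1, a phospholipase C, had a mean of 4.61 CPM in CTRL and 1.34 CPM in ODC at 24 h.

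The CTRL groups of the 2 times were compared because the choice of the genes did not use that contrast. Time and the month in the sample titles cannot be told apart in it. In edgeR's quasi-likelihood test over 13333 genes, 1038 (7.79%) passed the call rule and 2983 (22.4%) had an adjusted p under 0.05 at any fold change. None of the 10 genes passed either, by edgeR or by DESeq2, and 2 of them, ETV1 and SPRED1, had an unadjusted p under 0.05, against 36.3% of all genes tested. The CTRL groups did not overlap in 3 of the 10 genes, against 50.9% of all genes tested. ETV1 was lower at 24 h in all 3 CTRL libraries than in either library at 2 h, with a log2 difference of -0.67 (SE 0.27, edgeR adjusted p = 0.0991). SPRED1 was likewise lower without an overlap, at -0.52 (SE 0.21, edgeR adjusted p = 0.102). DUSP4 lay higher at 24 h without an overlap, at 0.58 (SE 0.32, edgeR adjusted p = 0.216), and the other 7 genes overlapped. The log2 difference of DUSP6 was 0.29 (SE 0.90) with all libraries and 3.09 (SE 1.13) without CTRL replicate 1 at 2 h, which leaves a single CTRL library at that time. Without that replicate, the log2 differences of ETV1 and SPRED1 shrank to -0.26 and -0.29, and that of DUSP4 was 0.76.

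Of 98 other genes of the pathway in 7 lists, 85 were tested at 24 h, and 45 were nominally higher and 40 lower in ODC, with a median log2 fold change of 0.01. None had an adjusted p under 0.05 in edgeR's quasi-likelihood test, 9 had an unadjusted p under 0.05 (12.2% of all genes tested had one), and by DESeq2 4 had an adjusted p under 0.05 at any fold change, namely DUSP3, DUSP8, PHLDA1 and EGR1. With the 24 h libraries paired by adjacent library number, a pairing that the labels do not state, edgeR gave 6 such genes: DUSP8, EGR1, DUSP3, PHLDA1, ELF3 at 1.10 (SE 0.22, adjusted p = 0.0424) and HMGA2 at -0.80 (SE 0.17, adjusted p = 0.0460). At 2 h, 87 were tested and none passed by edgeR or by DESeq2, with 4 at an unadjusted p under 0.05 (2.34% of all genes tested had one). For these genes the effect at 24 h was also tested against that at 2 h, and none passed by edgeR or by DESeq2, with 1 (PEBP1) at an unadjusted p under 0.05, where 2 of all genes tested (0.015%) passed after adjustment and 791 (5.93%) before it.

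Among 18 other ERK output genes tested at 24 h, 9 were nominally lower. EGR1 was at 42.4, 21.6 and 19.1 CPM in CTRL and at 6.93, 7.70 and 2.49 CPM in ODC, without an overlap, with a log2 fold change of -2.26 (SE 0.45, edgeR adjusted p = 0.107). PHLDA1 was at 176, 193 and 156 CPM in CTRL and at 69.9, 86.4 and 128 CPM in ODC, also without an overlap, at -0.87 (SE 0.21, edgeR adjusted p = 0.153). HMGA2, a chromatin protein, was at 443, 309 and 507 CPM in CTRL and at 189, 158 and 429 CPM in ODC, with an overlap, at -0.69 (SE 0.36). The median of the list was 0.03, beside 0.00 over all genes tested. At 2 h the smallest p values of the list were those of SPHK1 at 0.36 (SE 0.12), SLC20A1 at -0.42 (SE 0.24) and PHLDA1 at -0.93 (SE 0.71).

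Unlike DUSP6, most of the other MAP kinase phosphatases had a positive value at 24 h. Of 9 tested, 7 were nominally higher in ODC, with a median log2 fold change of 0.28. DUSP3 was at 57.6, 61.9 and 59.5 CPM in CTRL and at 79.0, 88.6 and 78.9 CPM in ODC, without an overlap, at 0.48 (SE 0.09, edgeR adjusted p = 0.107). DUSP8, a phosphatase for JNK and p38, was at 0.488, 1.96 and 1.51 CPM in CTRL and at 2.51, 9.79 and 4.68 CPM in ODC, at 2.12 (SE 0.60, edgeR adjusted p = 0.213). DUSP16 followed at 0.66 (SE 0.22) with an overlap. At 2 h the median was 0.02, and DUSP8, DUSP10 and DUSP9, the genes with the smallest p, were at 0.51 (SE 0.28), -0.26 (SE 0.20) and 0.55 (SE 0.45).

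The remaining Sprouty and Spred genes lay on the same side as SPRY4 at 24 h, within large errors. SPRED3 was at -0.72 (SE 0.51), SPRY1 at -0.47 (SE 0.54) and SPRY3 at -0.06 (SE 0.20) at 24 h, and at -0.75 (SE 0.43), -1.06 (SE 0.87) and 0.02 (SE 0.18) at 2 h. Of 11 other inhibitors of ERK and receptor signalling, 8 were nominally lower at 24 h and 9 at 2 h, with medians of -0.10 and -0.16. ERRFI1, which binds and inhibits the EGFR kinase, was at -0.77 (SE 0.28, edgeR adjusted p = 0.317), PEBP1, an inhibitor of RAF, at -0.25 (SE 0.08) and RASA2 at -0.28 (SE 0.14) at 24 h. At 2 h CBL, a ubiquitin ligase for receptors, was at -0.32 (SE 0.11), SOCS4 at -0.26 (SE 0.12) and SOCS5 at -0.25 (SE 0.13).

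The 22 genes of the cascade from EGFR to ERK had medians of 0.04 at 24 h and -0.03 at 2 h. EGFR, the target of erlotinib, was at 362, 504 and 449 CPM in CTRL and at 532, 767 and 500 CPM in ODC at 24 h, overlapping by 1 library, at 0.47 (SE 0.19, edgeR adjusted p = 0.376). BRAF was at 0.26 (SE 0.12) and RPS6KA1, an ERK substrate kinase, at 0.32 (SE 0.16). At 2 h MAP2K2 was at 0.21 (SE 0.09), ARAF at 0.13 (SE 0.09) and ERBB3, at under 1 CPM, at -1.66 (SE 0.69). Among the 9 genes of the CIC repressor and of the COP1 ligase that degrades PEA3 factors, TRIB1, a COP1 adaptor, was at -0.54 (SE 0.22, edgeR adjusted p = 0.367) at 24 h, with ATXN1 at 0.46 (SE 0.28) and ATXN1L, a partner of CIC, at 0.13 (SE 0.09). At 2 h TRIB2 was at -0.29 (SE 0.22), ATXN1L at -0.06 (SE 0.10) and COP1, listed under its older symbol RFWD2, at 0.04 (SE 0.10). The 15 other ETS factors tested at 2 h and the 13 tested at 24 h had medians of -0.02 and 0.00. ELF4 at 0.20 (SE 0.11), ETS2 at -0.19 (SE 0.10) and ELF1 at -0.16 (SE 0.10) had the smallest p of that list at 24 h, and ERF at 0.16 (SE 0.11), ELK4 at -0.12 (SE 0.15) and ETS1 at 0.15 (SE 0.18) at 2 h.

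**Figure D5:**
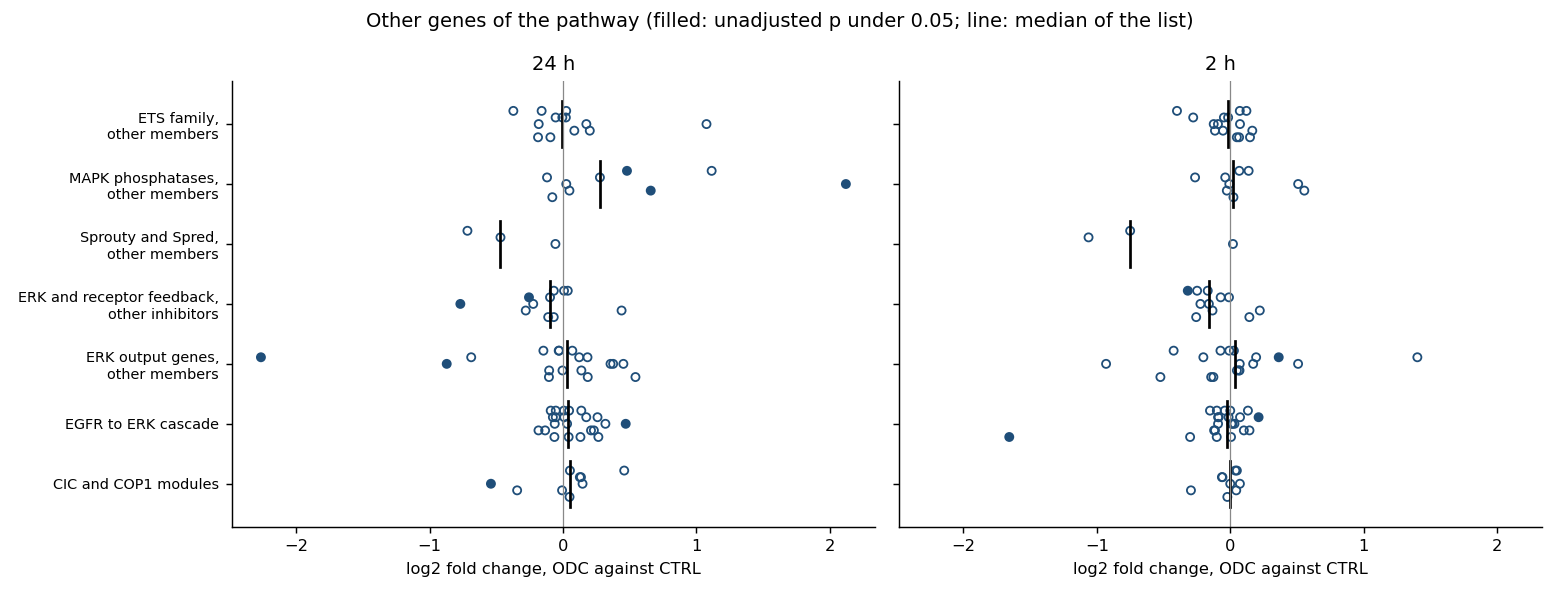
log2 fold change of ODC against CTRL (horizontal axis) of the other genes of the pathway in 7 lists, at 24 h (left) and 2 h (right). Each circle is a gene, filled where the unadjusted p was under 0.05, and the vertical line is the median of the list. EGR1 at -2.26 and DUSP8 at 2.12 are the farthest from 0 at 24 h, and no gene shown passed after adjustment in edgeR's quasi-likelihood test.

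In the comparison of the CTRL groups, 16 of the 87 list genes had an adjusted p under 0.05 in edgeR's quasi-likelihood test, against 22.4% of all genes tested. EGFR was higher at 24 h by 1.13 (SE 0.21, edgeR adjusted p = 0.00344) and TRIB1 by 1.63 (SE 0.44, edgeR adjusted p = 0.0222) on the log2 scale, while TRIB2 was lower, at -1.68 (SE 0.32, edgeR adjusted p = 0.00379).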

How the data were processed

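Stranded mRNA libraries were sequenced as single-end reads. Per the submitters' processing notes and the methods, the authors aligned the reads to hg38 with STAR and obtained gene counts with HTSeq 0.9.1; the notes name STAR 2.7.0f and edgeR 3.26.8, and the annotation is not given in the sources used here. The authors deposited raw counts, without normalization, in 1 table per time point.

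From these counts, edgeR 4.0.16 (R 4.3.3) was used with TMM factors (0.969 to 1.02), filterByExpr (minimum count 10, minimum total 15) and the earlier form of the quasi-likelihood test, two-sided, with Benjamini-Hochberg adjustment over all genes tested. ODC and CTRL were fitted separately at 24 h and 2 h, following the study's own test and call rule. The CTRL groups, and the difference between the effects, were tested in a joint fit of 11 libraries. SE was derived from the F value. RPKM used the union of exons in GENCODE 44. Correlations used log2(CPM + 0.1). Replicate libraries differed by a chi-square of 19.7 to 61.5 per gene, above sampling noise, and each counted as 1 sample. The script was tested on simulated data. The genes and lists were chosen with earlier results of these data known. The genes named were the 10 described, the 3 of each list with the smallest p at each time, and the 5 most like ETV1; others are marked. Alternatives were RLE scaling, every gene with at least 1 count, DESeq2 1.42.0, the newer quasi-likelihood method, the joint fit, libraries paired by adjacent number and each library left out; leaving out both 2 h libraries that stand apart was chosen after seeing the data. Figures were drawn with matplotlib 3.10.9.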

Additional observations from a re-analysis of the deposited data

How the results depend on the processing

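The labels give the groups no shared replicate number, and pairing the 24 h libraries by adjacent library number (deviations correlated at 0.20, 0.58 and 0.44) was tried only as an alternative. At 24 h, 21 genes met the call rule with all libraries, 59 with every gene that had a count, 146 by DESeq2, 95 in the joint fit, 176 with the pairing and 2 to 53 with each library left out in turn. Of the 10 genes, chosen with this contrast known, 1 met it (ETV1) and 2 did by DESeq2. With single libraries left out, ETV1 and ETV4 met it without ODC replicate 3, and none did in the other such fits. Nothing is read from these counts. List genes were counted at an adjusted p under 0.05 at any fold change; at 24 h none passed, against 1 with every gene that had a count (EGR1), 4 by DESeq2, 6 with the pairing (ELF3, DUSP8, DUSP3, PHLDA1, EGR1 and HMGA2) and 0 to 1 with each library left out (PHLDA1 without ODC replicate 3). At 2 h the count over all genes was 0, with 1 by DESeq2, 2 without both libraries that stand apart and 0 to 40 with each library left out, the 40 without CTRL replicate 2. In the comparison of the CTRL groups, 1038 genes fell to 654 without those 2 libraries and ranged from 696 to 1088 with each library left out, 0 of the 10 genes became 1 (DUSP6) without those 2, which were picked for their DUSP6, SPRY2 and SPRY4 levels, and the 16 list genes became 10, with a range of 9 to 19 over single libraries left out (9 without CTRL replicate 1 at 2 h). The causes were not tested. The other counts stayed within 1.5 times of the value given. The fold changes of the 10 genes moved by less than 1 SD between replicates in 119 of 120 values at 24 h and in 101 of 110 at 2 h, counting each gene under each alternative. The SD of log2 CPM at 2 h was as large as 2.55 (DUSP6 in CTRL), so large moves can fall below it. Without both 2 h libraries that stand apart, the log2 fold changes at 2 h changed sign in all of the 10 genes but ETV4. ETV1 moved to 0.10, ETV5 to 0.31, DUSP6 to 0.79, SPRY2 to 0.31 and SPRY4 to 0.38. Leaving out a CTRL library at 2 h leaves 1, which is assumed to vary like the ODC libraries. The lowest count behind any value of the 10 genes was 17, for ETV4 in ODC replicate 2 at 24 h.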
